A study of Homo sapiens with 12 samples.

Results

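hsa-miR-223-3p, hsa-miR-155-5p, hsa-miR-21-5p and hsa-miR-146a-5p are 4 human microRNAs (miRNAs, named below without the species prefix) known from monocyte and granulocyte biology and from inflammation. They were taken by name from the 798 human miRNA probes of a NanoString panel, and all 4 were on it. The panel was read in 12 samples of total RNA from 2 established human acute myeloid leukaemia lines, MOLM-14 and THP-1, both of monocytic type. Each line carried, by lentiviral transduction, either MUC1 specific shRNA (here silenced) or a scrambled control hairpin (here scrambled), with 3 samples in each of the 4 groups. All cells, controls included, were therefore transduced, RNA came from cells described as successfully transduced, and the study asked how silencing of MUC1, a transmembrane mucin, changes miRNAs. The values are probe counts, obtained without amplification.

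A miRNA guides a silencing complex to messenger RNAs that pair with its seed, the bases near its 5′ end, and lowers their translation and stability. miR-223 is abundant in the myeloid lineage and restrains granulocyte production and activation in mice. miR-155 is induced by inflammatory signals in macrophages and targets the inositol phosphatase SHIP1, miR-21 is raised in many cancers and by inflammatory stimuli and targets PDCD4, and miR-146a is induced by NF-κB and targets the signalling adaptors TRAF6 and IRAK1.

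The mature sequences show what each probe reports on and which other probes share a seed with it. They are given 5′ to 3′ from RefSeq (GRCh38.p14), with the seed, bases 2 to 8, in capitals.
miR-223-3p: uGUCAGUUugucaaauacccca
miR-155-5p: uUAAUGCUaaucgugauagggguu
miR-21-5p: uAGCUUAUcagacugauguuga
miR-590-5p: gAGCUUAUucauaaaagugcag
miR-146a-5p: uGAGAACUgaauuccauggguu
miR-146b-5p: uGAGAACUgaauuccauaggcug

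No seed was shared among the 4 miRNAs. Of the 706 panel probes with a RefSeq sequence, none other carried the seed of miR-223-3p or of miR-155-5p, while miR-590-5p shared that of miR-21-5p and miR-146b-5p that of miR-146a-5p. Over the 22 positions compared, counted from 1 at the 5′ end, miR-146b-5p differed from miR-146a-5p at 2 (G18A and U21C), and miR-590-5p differed from miR-21-5p at 14. The miRNAs lie on different chromosomes, all on the plus strand. miR-223-3p is at chrX:66018937-66018958 inside the long noncoding gene MIR223HG, and miR-155-5p at chr21:25573983-25574006 inside the long noncoding gene MIR155HG. miR-21-5p is at chr17:59841273-59841294, overlapping the protein-coding gene VMP1, and miR-146a-5p at chr5:160485372-160485393 inside the long noncoding gene MIR3142HG. Whether these positions are exonic was not looked up here. No probe on the panel carried the name of the opposite arms miR-223-5p, miR-155-3p and miR-146a-3p, so these were not analysed.

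Library totals ranged from 9002 to 20418 counts, lowest in silenced THP-1 (9002 to 12613) and highest in scrambled THP-1 (17123 to 20418). Most probes gave only background: 630 probes stayed above 1 and under 30 counts in all 12 samples, with library means of 10.1 to 15.1 counts and 95th percentiles of 17 to 24 counts. They serve here as the background, since no control probes were used. The number of probes at 30 counts or more was 14 to 32 in silenced THP-1 and 54 to 65 in scrambled THP-1. A chi-square test of samples 2 and 3 of scrambled MOLM-14 found no difference past the threshold (1.08 per degree of freedom over all probes, p = 0.0521, and 1.23 over the tested probes, p = 0.0951), unlike the other pairs of that group, and their mean is used as 1 sample in means and SDs. The fits keep samples 2 and 3 of scrambled MOLM-14 separate unless stated. All pairs of silenced THP-1 samples were closer still over the tested probes (0.944 to 1.06), but these were kept as 3 throughout unless stated. The 2 groups are thus not treated alike, and n = 3 with its SD may overstate the replication of silenced THP-1. Sample 2 of silenced MOLM-14 was unlike the rest of its group (Pearson r over all probes 0.654 and 0.697 with the others, against 0.961 between those). The source names of silenced MOLM-14 samples 2 and 3 read MUC2 and MUC3 where titles and transduction labels give MUC1, which was used. No label says that the samples of a group came from separate cultures, so the p-values rest on a spread that may be technical.

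As a check of the cell type, miR-142-3p, a miRNA common to blood cells, lay at 10 to 23 counts and passed the 95th percentile of background in 2 of 12 libraries, so this marker was near background in both lines. miR-181a-5p, another blood cell marker, passed it in 9 of 12 libraries and reached 494 counts. Of the markers of other cell types, the endothelial miR-126-3p passed it in 6 of 12 libraries (13 to 29 counts) and the epithelial miR-200a-3p in 2. The erythroid miR-144-3p, the epithelial miR-141-3p, the neural miR-9-5p, the liver miR-122-5p, which reached 52 counts, and the muscle miR-133a-3p and miR-206 passed it in 1 each, and the other 9 in 0. The 6 blood cell markers, which include 3 of the miRNAs described here, summed to 87 to 122 counts in silenced THP-1 against 247 to 263 in scrambled THP-1. In MOLM-14 the order was the other way, at 590 to 707 in silenced against 355 to 583 in scrambled samples. There only miR-181a-5p (mean 435 in silenced against 281.5 in scrambled samples) and miR-150-5p (76 against 13) were higher in silenced samples. The means of miR-142-3p, miR-223-3p, miR-155-5p and miR-146a-5p were lower, so the MOLM-14 sums do not show a rise of these markers in general. These sums contain miRNAs described here and are not a separate check of them. MUC1 itself is not measured by a miRNA panel, so the silencing has no check in these values.

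hsa-miR-223-3p was near or above background in MOLM-14 and clearly above it in scrambled THP-1, and it was at background in silenced THP-1. In scrambled THP-1 its counts were 47, 41 and 53, a mean of 47.0 ± 6.0 (SD, n = 3). In silenced THP-1 they were 11, 8 and 8, a mean of 9.0 ± 1.73 (n = 3). All silenced THP-1 samples lay below all scrambled ones, as for 35 of the 67 probes tested below (52.2%). They also lay below the mean of the background probes of their own library (14.3, 13.1 and 10.1). Summed over samples, 27 counts (exact 95% Poisson interval 17.8 to 39.3, counting error only) stood against 141 (119 to 166). In MOLM-14 the counts were 35, 22 and 24 in silenced and 21, 49 and 43 in scrambled samples, so the groups overlapped. Silenced sample 2 and scrambled sample 1 did not exceed the 95th percentile of background.

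hsa-miR-155-5p had lower counts in silenced than in scrambled samples of both lines, without overlap of the groups. The same held for 12 of the 67 probes tested below in MOLM-14 (17.9%) and for 35 in THP-1 (52.2%). In MOLM-14 its effect did not pass the test given below. In scrambled MOLM-14 its counts were 60, 90 and 94, a mean of 76.0 ± 22.6 (n = 2), and in silenced MOLM-14 they were 52, 59 and 41 (50.7 ± 9.07, n = 3). The lowest scrambled sample exceeded the highest silenced sample by only 1 count. In scrambled THP-1 counts were 73, 73 and 50 (65.3 ± 13.3, n = 3), and in silenced THP-1 29, 20 and 20 (23.0 ± 5.2, n = 3). There the gap was wider, and silenced sample 2 did not exceed the 95th percentile of background.

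hsa-miR-21-5p was the miRNA above the 95th percentile of background in all 12 libraries, and its order between hairpins differed between the lines. In MOLM-14 its counts were 40, 61 and 56 in silenced samples (52.3 ± 11.0, n = 3) and 27, 43 and 53 in scrambled samples (37.5 ± 14.8, n = 2). These groups overlapped. In THP-1 the counts were 31, 24 and 22 in silenced samples (25.7 ± 4.73, n = 3) and 54, 62 and 55 in scrambled samples (57.0 ± 4.36, n = 3). All silenced THP-1 samples lay below all scrambled ones, as for 35 of the 67 probes tested below (52.2%). miR-590-5p, which shares its seed, lay at 5 to 25 counts in 11 libraries and at 55 in silenced MOLM-14 sample 2, the library unlike the rest of its group.

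hsa-miR-146a-5p stayed near background throughout. Its counts were 20, 24 and 20 in silenced and 25, 26 and 30 in scrambled MOLM-14, and 27, 16 and 17 in silenced and 22, 28 and 31 in scrambled THP-1. The silenced MOLM-14 counts lay below the scrambled ones, but once divided by the background mean of each library the groups overlapped, and the THP-1 groups overlapped either way. In all 12 libraries the count was 1.23 to 2.09 times the mean of the background probes, and it exceeded their 95th percentile in 8. miR-146b-5p, which shares its seed, exceeded that percentile in 0 of 12 libraries.

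**Figure D1:**
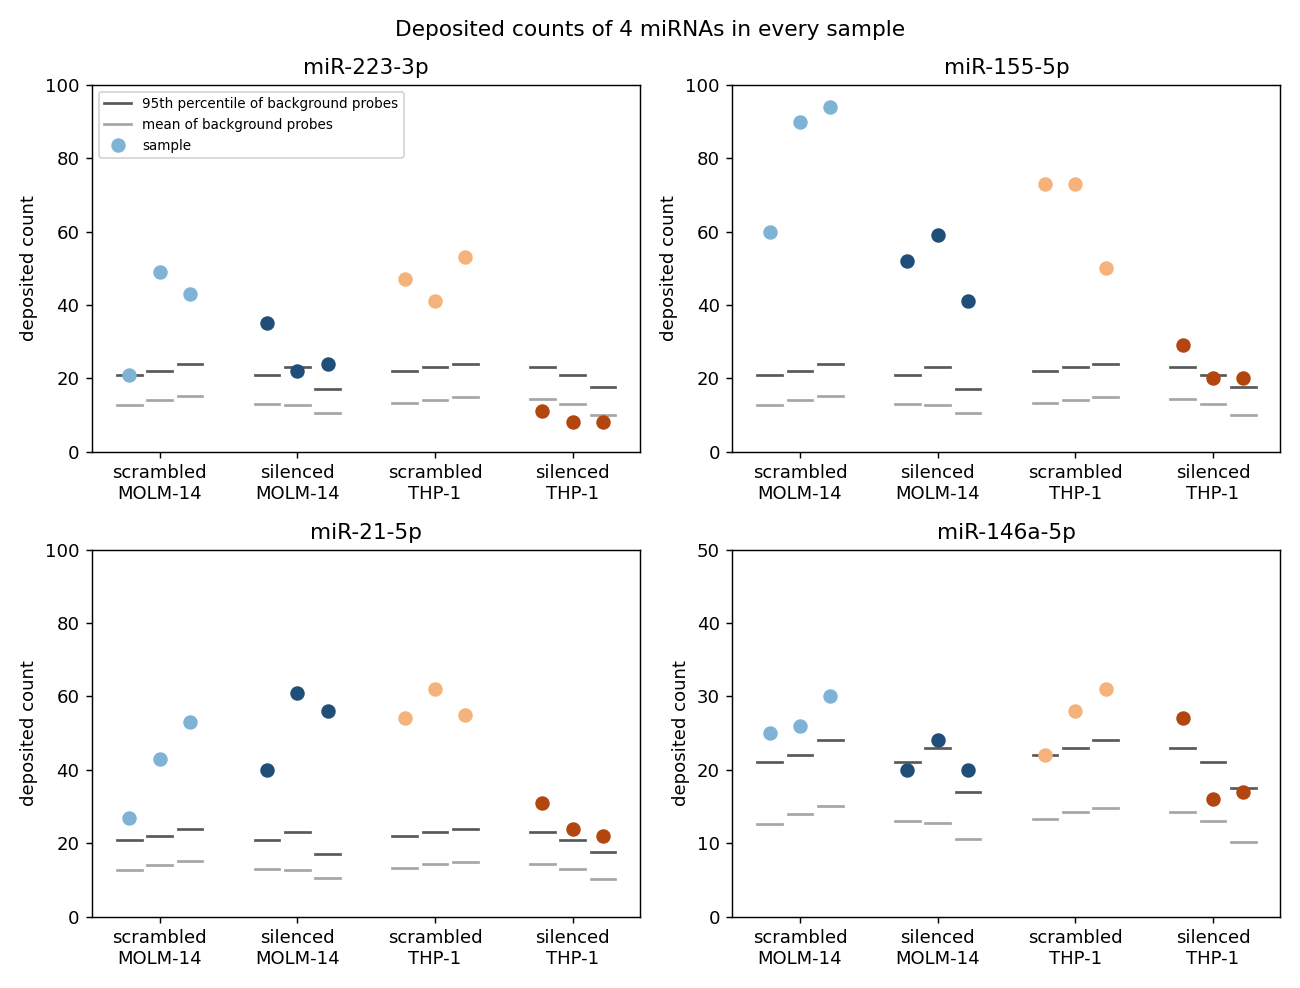
Deposited counts (vertical axis) of each miRNA in every sample of the 4 groups (horizontal axis). Each point is a sample, with the mean (light bar) and the 95th percentile (dark bar) of the 630 background probes of the same library, and the vertical axis for miR-146a-5p ends at 50 instead of 100. miR-223-3p in silenced THP-1 (8 to 11 counts) lies below the light bars, miR-21-5p lies above the dark bars in all samples, and miR-146a-5p stays between 16 and 31 counts.

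Counts were also divided by the background mean of the same library. Such levels do not depend on how much of a library was counted if background counts change in proportion, which was not tested. On this scale miR-223-3p was at 3.33 ± 0.389 in scrambled THP-1, 2.42 ± 1.07 in scrambled MOLM-14, 2.23 ± 0.479 in silenced MOLM-14 and 0.724 ± 0.0966 in silenced THP-1. In that order the last value lay apart from its neighbour by more than the sum of their SDs, and the other neighbours did not. miR-155-5p ran from 5.54 ± 1.12 in scrambled MOLM-14 through 4.66 ± 1.13 in scrambled THP-1 and 4.17 ± 0.409 in silenced MOLM-14 to 1.85 ± 0.273 in silenced THP-1, and again only the last lay apart from its neighbour. miR-21-5p ran from 4.39 ± 1.17 in silenced MOLM-14 through 4.04 ± 0.324 in scrambled THP-1 and 2.71 ± 0.818 in scrambled MOLM-14 to 2.06 ± 0.191 in silenced THP-1, where only scrambled THP-1 and scrambled MOLM-14 were neighbours further apart than their SDs. Silenced THP-1 was thus the lowest group for each of the 4, with miR-146a-5p at 1.60 ± 0.340 there against 1.77 to 1.95 elsewhere, a difference within its spread. The share of all tested probes with silenced THP-1 as their lowest group was not counted. On this scale all silenced samples lay below all scrambled ones for 36 of the 67 probes tested in THP-1 (53.7%). In MOLM-14 they did so for 10 (14.9%). On the deposited counts, all silenced samples lay below all scrambled ones for 35 of the 67 probes tested in THP-1 (52.2%) and for 12 in MOLM-14 (17.9%), so such separation was common in THP-1.

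The hairpin effect was then tested across the 67 of 798 probes that reached 30 counts in 3 samples or more. miR-223-3p, miR-155-5p and miR-21-5p were among them, and miR-146a-5p, which reached 30 counts in 2 samples, was not. Counts were fitted with edgeR's quasi-likelihood test with Benjamini-Hochberg adjustment over the 67 probes and a threshold of 0.05. Scaling was by TMM (trimmed mean of M values) factors, which take the typical tested probe as unchanged, or by the background probes, which take the background as unchanged. In THP-1 these differ: the median log2 fold change of the 67 was -0.031 with TMM and -0.61 with background scaling. In MOLM-14 the medians were -0.034 and -0.063. Values below are log2 fold changes ± SE, and in bulk RNA fewer cells with a miRNA and less of it per cell cannot be told apart.

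In THP-1 miR-223-3p and miR-155-5p fell with MUC1 shRNA, with log2 fold changes of -1.63 ± 0.30 (edgeR adjusted p = 0.00103) and -0.75 ± 0.19 (edgeR adjusted p = 0.00769). miR-21-5p had -0.39 ± 0.18 (95% interval -0.79 to 0.013, edgeR adjusted p = 0.0999) and did not pass. Of the 67 probes 26 passed, 38.8%, of which 16 fell, 23.9%, and 10 rose, 14.9%, so the 2 of 3 members that fell stand in a comparison in which many probes fell. With background scaling all 3 fell, at -2.19 ± 0.30, -1.33 ± 0.24 and -0.97 ± 0.25 (edgeR adjusted p = 6.86e-05, 0.00055 and 0.00643), and 32 probes passed, 47.8%, of which 30 fell, 44.8%, and 2 rose, 2.99%. On that scale the median of the 3 members was -1.33, against -0.61 for all 67. miR-223-3p passed in all 26 other settings tried, with values from -3.74 to -1.28 and adjusted p from 6.86e-05 to 0.0364, the most negative after background was subtracted. The size of its fall is uncertain, since counts under the background mean leave the remaining miRNA unmeasured. For miR-155-5p, adjusted p ran from 0.00055 to 0.218, and the call was lost in the fits without scrambled THP-1 sample 1 (-0.33) or 2 (-0.47) and with the silenced samples averaged into 1 (-0.85), which left 15 calls in all. For miR-21-5p it ran from 0.00643 to 0.729, and the call was made only with background scaling. With that scaling all 3 kept the call when any 1 library was left out.

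In MOLM-14 miR-21-5p rose by 0.64 ± 0.18 (edgeR adjusted p = 0.0278), a 1.56-fold change. miR-155-5p had -0.42 ± 0.18 (95% interval -0.81 to -0.030, edgeR adjusted p = 0.13) and miR-223-3p -0.17 ± 0.27 (-0.76 to 0.42, edgeR adjusted p = 0.766), and neither passed. Of the 67 probes 11 passed, 16.4%, of which 5 rose, 7.46%, and 6 fell, 8.96%. The call of miR-21-5p was not firm: its value stayed positive in all 26 other settings (0.32 to 0.93, adjusted p from 0.00822 to 0.526) but passed in 9. With background scaling it was 0.58 ± 0.24 (edgeR adjusted p = 0.139) and none of the 3 passed, while 9 probes did, 13.4%, of which 3 rose, 4.48%, and 6 fell, 8.96%. Without silenced MOLM-14 sample 2, unlike the rest of its group, miR-21-5p had 0.65 (edgeR adjusted p = 0.035) and miR-155-5p -0.40. The call of miR-21-5p was lost without silenced MOLM-14 sample 3 (0.47) and without scrambled MOLM-14 sample 1 (0.57), 2 (0.64) or 3 (0.70). Leaving out a THP-1 library of the shared fit also ended it, for silenced sample 2 (0.61) and scrambled samples 1 (0.65) and 2 (0.65). Without the silenced samples whose source names conflict it was 0.32. The direction of miR-223-3p turned without silenced MOLM-14 sample 2 (0.063), without scrambled MOLM-14 sample 2 (0.025) and without the samples of conflicting source name (0.25).

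miR-146a-5p was read from a fit of all 798 probes, whose TMM factors are set mostly by background probes. In MOLM-14 it had a log2 fold change of -0.15 ± 0.25 (95% interval -0.67 to 0.37, edgeR adjusted p = 0.961) and in THP-1 -0.21 ± 0.25 (-0.73 to 0.31, edgeR adjusted p = 0.91). In that fit 10 probes (1.25%) passed in MOLM-14 and 21 (2.63%) in THP-1. Added to the 67 tested probes, it had -0.092 ± 0.19 and 0.31 ± 0.19, so its sign in THP-1 depended on the scaling. The difference between the lines was -0.062 ± 0.35, THP-1 minus MOLM-14 was -0.024 ± 0.24 between scrambled and -0.086 ± 0.26 between silenced samples, and 15 (1.88%), 2 (0.251%) and 38 (4.76%) probes passed in these comparisons. miR-146a-5p did not pass in any setting tried, and a change was not detectable at this depth.

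**Figure D2:**
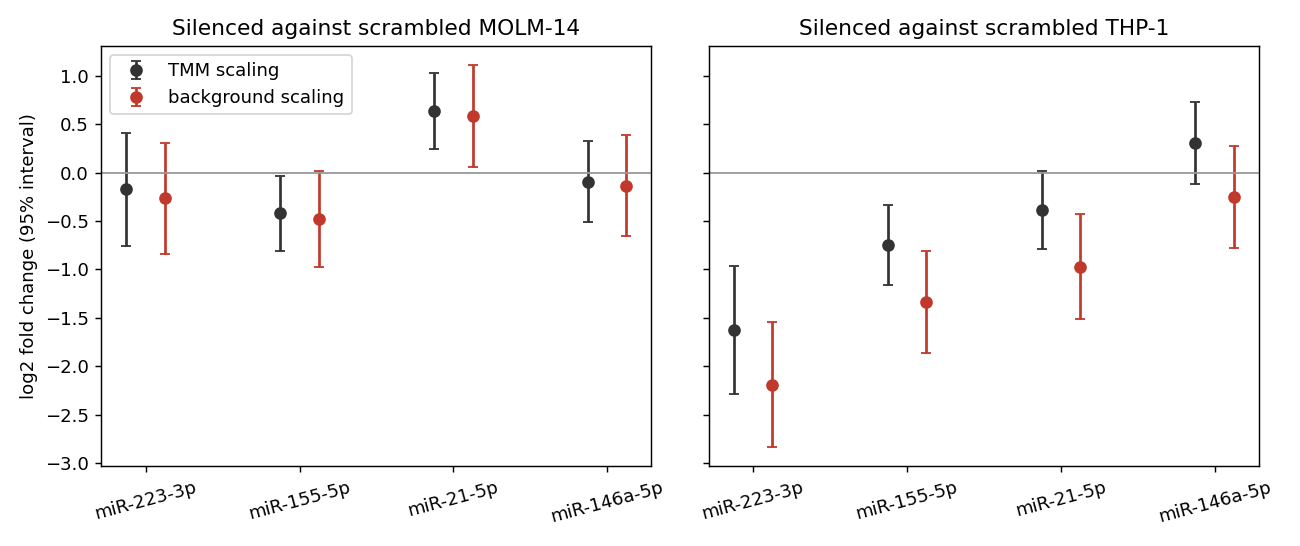
Log2 fold change of silenced against scrambled samples (vertical axis) for each miRNA (horizontal axis) in MOLM-14 (left) and THP-1 (right), with 95% intervals as bars, under TMM scaling (black) and background scaling (red). miR-146a-5p is from fits that include it. In THP-1 the points of miR-223-3p lie lowest, at -1.63 and -2.19, and each red point lies below its black partner, while in MOLM-14 the scalings nearly coincide.

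The effects of the hairpin differed between the lines for 2 members. The difference, THP-1 minus MOLM-14, was -1.46 ± 0.41 for miR-223-3p (edgeR adjusted p = 0.0182) and -1.03 ± 0.26 for miR-21-5p (edgeR adjusted p = 0.0106). miR-155-5p had lower counts in silenced samples of both lines, though its MOLM-14 effect did not pass. Its difference was -0.33 ± 0.26 (95% interval -0.90 to 0.24, edgeR adjusted p = 0.341), and the sign turned without scrambled THP-1 sample 1 (0.079). Of the 67 probes 16 passed, 23.9%, with 12 lower in THP-1, 17.9%, and 4 higher, 5.97%. Background scaling gave -1.93 ± 0.40, -1.55 ± 0.35 and -0.86 ± 0.33 in the order miR-223-3p, miR-21-5p and miR-155-5p, and the first 2 passed, beside 26 probes in all, 38.8%, with 24 lower, 35.8%, and 2 higher, 2.99%. Without silenced MOLM-14 sample 2 the TMM values were -1.69 and -1.04, and both passed. With TMM scaling miR-223-3p lost the call without scrambled THP-1 sample 1 (-1.13) or 3 (-1.11), and miR-21-5p without scrambled THP-1 sample 1 (-0.75), 2 (-0.77) or 3 (-0.81), and both lost it with the silenced THP-1 samples averaged (-1.52 and -1.08, with 9 calls in all). With background scaling both kept it without any single library.

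**Figure D3:**
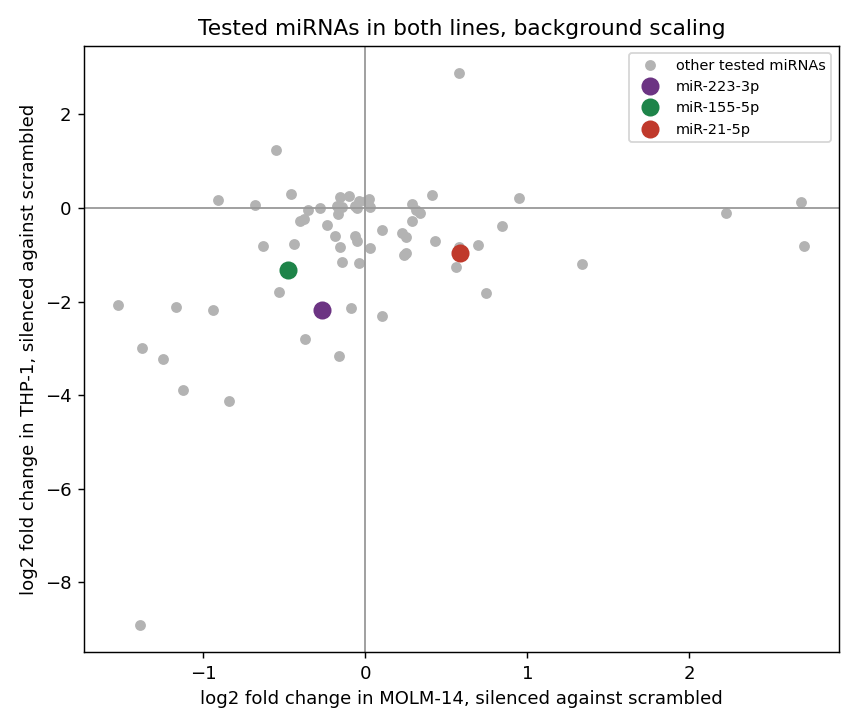
Log2 fold change of silenced against scrambled samples in MOLM-14 (horizontal axis) and THP-1 (vertical axis) for the 67 tested miRNAs, with background scaling. Each point is a miRNA and the coloured points are the 3 tested members. miR-21-5p lies right of 0 and below 0 (0.58 and -0.97), and miR-155-5p (-0.48 and -1.33) and miR-223-3p (-0.27 and -2.19) lie left of 0 and below 0.

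Ratios of 2 members within a library do not depend on any scaling between libraries, and their changes are given without a test. The ratio of miR-155-5p to miR-21-5p was 1.77 to 2.22 in scrambled MOLM-14 and 0.732 to 1.30 in silenced MOLM-14, without overlap. On the log2 scale its mean went from 1.05 ± 0.15 (n = 2) to -0.040 ± 0.41 (n = 3). In THP-1 that ratio overlapped, at 0.909 to 1.35 in scrambled and 0.833 to 0.935 in silenced samples. The ratio of miR-223-3p to miR-21-5p in THP-1 was 0.661 to 0.964 in scrambled and 0.333 to 0.364 in silenced samples, again without overlap. In MOLM-14 that ratio overlapped (0.778 to 1.14 and 0.361 to 0.875). The ratio of miR-223-3p to miR-155-5p separated the THP-1 groups as well, at 0.562 to 1.06 in scrambled and 0.379 to 0.400 in silenced samples, and overlapped in MOLM-14. Such separation was common: of the 2211 pairs of tested probes, the ratio separated the hairpin groups for 31.7% in MOLM-14 and 62.5% in THP-1. Since part of each count is background, these ratios understate differences between miRNAs near it.

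**Figure D4:**
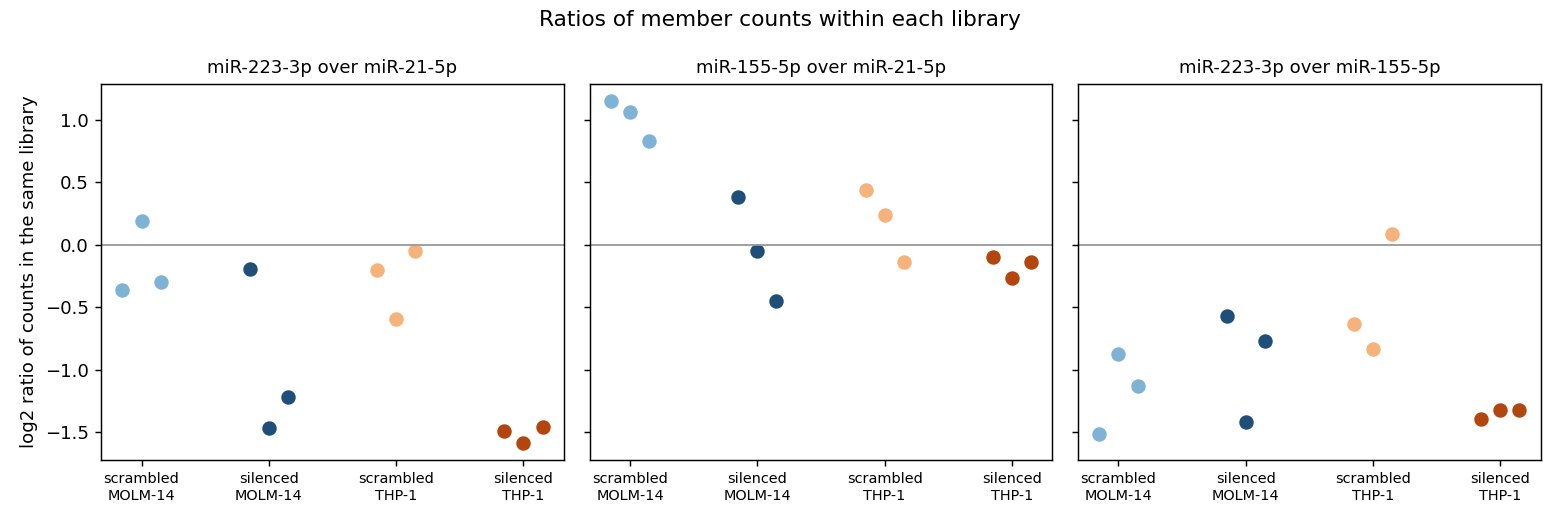
Log2 ratio of the counts of 2 miRNAs in the same library (vertical axis) by group (horizontal axis), 1 point per sample, for 3 pairs. miR-155-5p over miR-21-5p separates the MOLM-14 groups, and miR-223-3p over miR-21-5p, with silenced samples between -1.58 and -1.46, and over miR-155-5p separates the THP-1 groups.

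Between the scrambled lines no member passed: THP-1 minus MOLM-14 was 0.21 ± 0.26 for miR-223-3p (95% interval -0.35 to 0.77), -0.45 ± 0.18 for miR-155-5p (-0.84 to -0.066) and 0.35 ± 0.18 for miR-21-5p (-0.037 to 0.74), with edgeR adjusted p of 0.661, 0.132 and 0.248. At an unadjusted p under 0.05, 17 of the 67 probes differed there, and 6 passed after adjustment (edgeR, 8.96%), 3 higher and 3 lower, 4.48% each. Background scaling called 7, 10.4%, with 4 higher, 5.97%, and 3 lower, 4.48%, no member among them. Between the silenced lines all 3 tested members were lower in THP-1, with -1.24 ± 0.32 for miR-223-3p, -0.78 ± 0.19 for miR-155-5p and -0.68 ± 0.18 for miR-21-5p (edgeR adjusted p = 0.00718, 0.00655 and 0.0108). In that comparison 37 probes passed, 55.2%, with 23 lower, 34.3%, and 14 higher, 20.9%. Background scaling gave -1.61, -1.17 and -1.08, all called, beside 35 probes, 52.2%, with 31 lower, 46.3%, and 4 higher, 5.97%, so lower values in silenced THP-1 were common among tested probes. Without scrambled THP-1 sample 2 miR-155-5p lost this call (-0.55), and without scrambled THP-1 sample 1, 2 or 3 miR-21-5p did (-0.44 each), and with the silenced THP-1 samples averaged all 3 did. These comparisons share samples with the hairpin comparisons.

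Other miRNAs of myeloid differentiation and of the inflammatory response were read beside the 4. Of the 28 listed myeloid differentiation miRNAs on the panel 6 were tested. In THP-1 2 of these fell: miR-23a-3p, of the miR-23a cluster that acts in myeloid against lymphoid fate in mice, at -1.74 ± 0.25, and miR-181a-5p, which tunes T cell receptor signalling in mice, at -1.23 ± 0.15 (edgeR adjusted p = 0.000126 and 2.77e-05). In silenced THP-1 they lay at 12 to 15 and 17 to 22 counts. Both exceeded the 95th percentile of background in 0 of 3 libraries there, so the sizes of these falls are uncertain. In MOLM-14 1 rose, miR-181a-5p (0.80 ± 0.13), and none fell, while miR-23a-3p, with 89.3 ± 10.5 counts in silenced samples against 93.5 ± 14.8 in scrambled ones, did not pass. The median log2 fold change of the 6 was 0.030 in MOLM-14 and -0.39 in THP-1, beside -0.034 and -0.031 for all tested probes. In THP-1 2 of 6 lower stood beside 23.9% of all tested probes, and in MOLM-14 1 of 6 higher beside 7.46%. With background scaling 5 of the 6 fell in THP-1, beside 44.8% of all tested probes.

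Of the 40 inflammatory response miRNAs on the panel 8 were tested. Among them miR-181a-5p, miR-125a-5p and miR-125b-5p are also in the first list, so the counts of the 2 lists are not independent. In THP-1 3 fell, miR-181a-5p, miR-92a-3p (-1.55 ± 0.24), which comes from a cluster amplified in lymphomas, and miR-93-5p (-1.48 ± 0.26), and 1 rose, miR-149-5p (0.67 ± 0.19), beside 23.9% of all tested probes lower and 14.9% higher. In silenced THP-1 miR-92a-3p lay at 15 to 23 counts, above the 95th percentile of background in 0 of 3 libraries. The size of its fall is therefore uncertain too. With background scaling miR-149-5p had 0.087 ± 0.25 and did not pass, and 0 of this list rose and 5 fell, beside 2.99% and 44.8% of all tested probes. miR-149-5p also did not pass with the silenced THP-1 samples averaged. In MOLM-14 miR-181a-5p and miR-150-5p, which targets the transcription factor MYB, were called higher, and miR-93-5p fell (-1.45 ± 0.26), beside 7.46% of all tested probes higher and 8.96% lower. miR-150-5p reached 30 counts in the silenced MOLM-14 samples alone (63 to 85, against 11 to 24 in the other groups), so it passed the count filter through the group where it is high. It was above the 95th percentile of background in 0 of 3 scrambled MOLM-14 libraries, and no fold is given. miR-93-5p reached 30 counts in scrambled samples alone (33 to 78 in MOLM-14 and 94 to 126 in THP-1). It too passed the count filter through the groups where it is high. Silenced samples had 12 to 23 counts of it in MOLM-14, above that percentile in 1 of 3 libraries. In silenced THP-1 they had 20 to 25, above it in 3 of 3. The sizes of its falls are therefore uncertain. Medians of the 8 were -0.0079 in MOLM-14 and -0.40 in THP-1. Without silenced MOLM-14 sample 2 the MOLM-14 calls of miR-181a-5p (0.84), miR-150-5p and miR-93-5p (-1.37) held, and miR-342-3p of the first list rose as well (0.86). In the difference between the lines 2 of the 6 and 3 of the 8 were lower in THP-1, miR-181a-5p in both lists, and none higher, beside 17.9% and 5.97% of all tested probes. The 3 include miR-150-5p, and miR-92a-3p (-1.49), which did not pass with the silenced THP-1 samples averaged (-1.54, edgeR adjusted p = 0.0716).

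The tested miRNAs most like each member were found by Pearson r of log2 TMM-scaled counts over the 12 samples, which fall into 4 groups and share libraries and scaling. For miR-223-3p they were miR-191-5p (r = 0.882), let-7c-5p (0.845) and miR-15b-5p (0.829), all at low counts in silenced THP-1 (25.7 ± 1.15, 15.3 ± 3.06 and 17.7 ± 1.53). For miR-155-5p they were miR-15b-5p (0.880), let-7g-5p (0.862) and miR-423-5p (0.832). For miR-21-5p they were others, miR-188-5p (0.876), miR-342-3p (0.758) and miR-128-1-5p (0.743). After each group's mean was taken out, r was 0.11, -0.61 and -0.32 for those of miR-223-3p, 0.25, 0.23 and -0.27 for those of miR-155-5p, and 0.75, 0.44 and 0.56 for those of miR-21-5p. The likeness of miR-223-3p and miR-155-5p to their neighbours thus lay mainly between groups. Among the members r was 0.764 for miR-223-3p with miR-155-5p, 0.385 for miR-223-3p with miR-21-5p and 0.162 for miR-155-5p with miR-21-5p. With background scaling these values were 0.873, 0.718 and 0.640, so how unlike the others miR-21-5p appears depended on the scaling.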

How the data were processed

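The authors deposited probe counts from a NanoString microRNA assay on total RNA, per the labels' protocols. They were read as counts because all values are whole numbers and totals differ between samples. Which software, background correction and lane scaling made them is not given in the sources used here. Groups follow line and hairpin in the titles. Counts were fitted in 1 edgeR 4.0.16 model of 4 group means (quasi-likelihood, R 4.3.3) and checked on simulated data, with alternatives in DESeq2 1.42.0 and limma 3.58.1 (pseudocount 1) and with other scalings, filters and left-out samples. The simulated data covered the whole panel without the count filter, with as many probes raised as lowered. The case of mostly falling tested probes was therefore not checked. SEs are the log2 fold change over the square root of F. Background probes were above 1 and under 30 counts in all samples. Library totals were 9002 to 20418 counts. Named were the 4 miRNAs, probes sharing their seed, the 3 most alike tested probes of each, up to 6 called members of each list, and tested miRNAs in both lists. The miRNAs, lists and background scaling were chosen with earlier results of these data known. Joint probes, which list several miRNAs, numbered 21. Counts near background limit precision, and intervals of counts cover counting error only.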

Additional observations from a re-analysis of the deposited data

Results flagged for a closer look

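The hairpin effect in THP-1 minus that in MOLM-14 passed the test of the difference for miR-223-3p (log2 difference -1.46 ± 0.41, edgeR adjusted p = 0.0182) and for miR-21-5p (-1.03 ± 0.26, edgeR adjusted p = 0.0106). Of the 67 tested probes 16 passed that test, 23.9%. The call held in 21 of 25 other settings for miR-223-3p and in 19 of 25 for miR-21-5p. miR-223-3p was lower in 3 of 3 silenced than in all scrambled THP-1 samples, with counts of 8 to 11 against background means of 10.1 to 14.3 in the same libraries. Such separation downward was common in THP-1, at 35 of the 67 tested probes (52.2%). In THP-1 the number of probes reaching 30 counts was 54 to 65 per scrambled library but 14 to 32 per silenced library, and the part of this in either difference was not tested.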

How the results depend on the processing

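The averaging of silenced THP-1 samples, the samples of conflicting source name left out, the addition of miR-146a-5p to the tested probes and the left-out replicates under background scaling were chosen after seeing the data. Background scaling itself, the miRNAs and the lists were also chosen with earlier results of these data known. Of the fits tried, the fall of miR-223-3p in THP-1 kept its call in all. With the silenced THP-1 samples averaged into 1, log2 fold changes that lost the call were 0.61 for miR-21-5p in MOLM-14, -0.85 for miR-155-5p in THP-1, -1.52 (miR-223-3p) and -1.08 (miR-21-5p) for the difference, and -1.28, -0.82 and -0.70 for miR-223-3p, miR-155-5p and miR-21-5p between silenced lines, and calls numbered 15 in THP-1, 9 for the difference and 11 between silenced lines. With background scaling as well, miR-21-5p lost it in THP-1 (-0.95), for the difference (-1.54) and between silenced lines (-1.07), as miR-223-3p (-1.62) and miR-155-5p (-1.17) did there. The rise of miR-21-5p in MOLM-14 lost the call with DESeq2 (0.64), total count (0.58), top 100 (0.60) and background scaling (0.58), no count filter (0.57), a filter of 20 counts (0.60), only the groups compared (0.65) and scrambled samples 2 and 3 averaged (0.66). miR-21-5p also lost it for the difference with DESeq2 (-0.97), and between silenced lines with top 100 scaling (-0.47) and only the groups compared (-0.55), and gained it in THP-1 with background scaling (-0.97). miR-223-3p lost the difference with top 100 scaling (-1.36). Without the samples of conflicting source name miR-21-5p had 0.32 in MOLM-14, -0.71 for the difference and -0.36 between silenced lines, miR-223-3p 0.25 in MOLM-14, miR-146a-5p 0.10 for the difference and 0.071 between silenced lines, and calls numbered 14 between scrambled and 18 between silenced lines. miR-146a-5p changed sign with total count scaling in THP-1 (0.31), for the difference (0.45) and between silenced lines (0.20), with top 100 scaling (0.41, 0.54 and 0.46), when added to the tested probes (0.31, 0.40 and 0.24) and with a filter of 20 counts for the difference (0.076). Calls for the difference numbered 26 with background scaling. Calls between scrambled lines numbered 6, and 3 with DESeq2 or a filter of 20 counts, 2 with background subtracted, with no filter or with scrambled samples averaged, and 12 with only the groups compared.

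Leaving out each replicate gave, for miR-223-3p, -0.44 to 0.063 in MOLM-14 and -1.69 to -1.11 for the difference, for miR-155-5p, -0.84 to -0.33 in THP-1, -0.38 to 0.079 for the difference and -0.83 to -0.55 between silenced lines, and for miR-21-5p, 0.47 to 0.77 in MOLM-14, -1.17 to -0.75 for the difference and -0.81 to -0.44 between silenced lines. For miR-146a-5p it gave -0.22 to 0.10 for the difference, -0.10 to 0.062 between scrambled and -0.25 to 0.079 between silenced lines. Under background scaling it gave 0.41 to 0.79 for miR-21-5p in MOLM-14, which passed without silenced sample 1, and -1.04 to -0.72 for the difference of miR-155-5p, which passed without scrambled THP-1 sample 3. Calls ranged from 9 to 18 in MOLM-14, 14 to 28 for the difference and 2 to 13 between scrambled lines.

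Whether the replicate numbers pair the samples cannot be told from so few of them. Deviations of same-numbered samples correlated at 0.36, 0.41 and -0.23 in MOLM-14 and at 0.12, -0.43 and -0.26 in THP-1. With the replicate number as a block, miR-223-3p had -0.20 in MOLM-14 and -1.62 in THP-1, miR-155-5p -0.43 and -0.74, and miR-21-5p 0.64 and -0.39, calls numbered 14 in MOLM-14, 25 in THP-1 and 23 for the difference, and no call of the 4 miRNAs changed. The causes of these shifts were not tested.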
